A study of Mus musculus with 10 samples.

Results

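The 9 genes described here encode the effector cytokines and death ligands of type 1 helper and CD8 T cells: Ifng, Il2, Il21, Csf2, Tnf, Lta, Ltb, Fasl and Tnfsf10. They were taken by symbol as 9 of the 48825 rows of a deposited table of normalized counts, and all 9 are followed in each of 10 libraries. The libraries are bulk RNA sequencing of T cells from melanomas of mice with the BrafCA and Tyr::CreER alleles, in which a tamoxifen-activated Cre driven by the tyrosinase promoter switches on mutant Braf in melanocytes. The same alleles and local tumor induction applied to all 4 groups, and the genotype field reads wild type for each. The CSF1Ri+CD40 group (2 libraries, numbered 1 and 3) received chow with the CSF1 receptor inhibitor PLX6134 at 600 mg/kg and the agonistic CD40 antibody FGK4.5 at 10 mg/kg by injection into the peritoneum every 3 days. The CSF1Ri group (2 libraries, number 6 and 1 without a number, called 1 here) received the inhibitor chow, and the CD40 group (3 libraries) received the antibody. The control group (3 libraries) had neither agent, and the labels name normal chow and PBS as the control chow and vehicle. Treatment began 30 days after induction, with tumors under 100 mm3, and ran for up to 30 days and 10 antibody doses, or until tumors reached 2 cm3. Each library pooled 3 or more tumors, and the ages of the mice were matched but are not given in the sources used here. The labels do not say which mice gave which pool, so each p-value reflects how these pools varied and says nothing of single mice.

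Type 1 cytokines are made in bursts after the T cell receptor and costimulation switch on factors such as NFAT, AP-1 and NF-kappaB. Interferon gamma acts on nearby cells to raise antigen presentation and macrophage activity, TNF and the lymphotoxins signal through receptors of the TNF family, and Fas ligand and TRAIL trigger death of cells that carry their receptors. In tumors, activated macrophages and dendritic cells supply interleukin 12 and costimulation that drive T cells to this program, and both agents used here act on myeloid cells. Many of these messenger RNAs are short-lived, so their levels also follow the proteins that destroy them.

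In brief, Fasl and Ifng had their most uniform high values with the combination: Fasl averaged 3.59-fold and Ifng 2.73-fold the control level on the fitted scale, and both CSF1Ri+CD40 libraries were above all 3 controls for both genes. Of all genes tested, 10.6% lay above every control in this way. Il21 and Tnf were low in the same libraries, each below every library of the single treatments, although Tnf in CSF1Ri+CD40 library 1 lay within the control range. Under the combination, 16.8% of all genes tested lay below every CSF1Ri library and 6.84% below every CD40 library. None of the differences of Fasl, Ifng, Il21 and Tnf passed the test across all genes (adjusted p under 0.05) in any comparison. The antibody alone gave no uniform picture, since CD40 libraries 1 and 2 were above all controls for Ifng, Tnf, Lta and Fasl while CD40 library 3 was the lowest of all 10 libraries for Ifng, Il2, Lta and Fasl.

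The RefSeq sequences (build GRCm38.p6) of the 250 bases before the start site are shown for 4 members: the pair with the highest values under the combination, Fasl and Ifng, and Tnf and Il2, which did not share that pattern. All are written 5′ to 3′ on the gene's strand. Capitals mark GGAAA or its reverse complement TTTCC, the core of NFAT binding sites, and TATAAA, the TATA box. The windows lie at chr1:161788496-161788745 on the minus strand for Fasl, chr10:118440796-118441045 on the plus strand for Ifng, chr17:35202008-35202257 on the minus strand for Tnf and chr3:37125955-37126204 on the minus strand for Il2.
Fasl: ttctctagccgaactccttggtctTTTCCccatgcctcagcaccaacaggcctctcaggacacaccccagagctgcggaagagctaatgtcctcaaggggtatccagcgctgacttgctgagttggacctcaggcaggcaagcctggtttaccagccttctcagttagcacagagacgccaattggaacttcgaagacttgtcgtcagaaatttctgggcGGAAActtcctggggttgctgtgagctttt
Ifng: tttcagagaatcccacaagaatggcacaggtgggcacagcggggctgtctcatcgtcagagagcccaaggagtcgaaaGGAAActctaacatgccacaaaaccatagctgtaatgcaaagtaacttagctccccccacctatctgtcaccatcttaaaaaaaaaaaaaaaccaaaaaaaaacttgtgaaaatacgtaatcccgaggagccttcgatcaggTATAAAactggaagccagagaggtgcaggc
Tnf: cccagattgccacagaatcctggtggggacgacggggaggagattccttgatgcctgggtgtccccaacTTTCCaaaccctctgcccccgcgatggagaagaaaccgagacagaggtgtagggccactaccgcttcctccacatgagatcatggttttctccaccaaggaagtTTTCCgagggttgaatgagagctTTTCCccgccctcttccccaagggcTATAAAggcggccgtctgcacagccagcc
Il2: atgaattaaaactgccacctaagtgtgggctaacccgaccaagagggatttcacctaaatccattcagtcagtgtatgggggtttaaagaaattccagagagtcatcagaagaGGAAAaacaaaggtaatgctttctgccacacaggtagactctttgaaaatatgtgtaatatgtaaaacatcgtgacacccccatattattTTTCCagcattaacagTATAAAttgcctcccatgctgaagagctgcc
Both strands of the 250-base window of every promoter were searched. GGAAA was found in 9 of 9 members and in 55.6% of 32851 promoters, and TATAAA in 4 of 9 members (Ifng, Il2, Tnf and Lta) and in 12.4% of promoters. The TATA match began 30 bases before the start of Ifng, 31 before that of Il2 and 29 before that of Tnf. Tnf held 3 NFAT cores, at 181, 77 and 54 bases before its start, Fasl held 2 and Ifng held 1. The AP-1 letters TGANTCA and the T-box half-site GGTGTGA were in 0 of 9 members, against 6.75% and 3.33% of promoters. The kappaB consensus was in 1 of 9, Ltb, where it overlaps the NFAT core, against 3.9% of promoters. The start sites are those of RefSeq and differ from the GENCODE positions given below for some members. The Csf2 window, 54249900 to 54250149, lies apart from the GENCODE gene, which ends at 54249667. The windows of Il2, Ltb and Tnfsf10 run into their GENCODE genes. A match here is a description of letters, not a measured binding site.

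By position (GRCm38, GENCODE), the members fall on 5 chromosomes. Tnf (chromosome 17, 35199381 to 35202007, minus strand) lies 1.2 kb from Lta (35203165 to 35205351, minus strand) and 3.1 kb from Ltb (35194439 to 35196320, plus strand). Il2 (chromosome 3, 37120523 to 37125959, minus strand) lies 96.8 kb from Il21 (37222759 to 37232636, minus strand), and Tnfsf10 (27317028 to 27342427, plus strand) is on the same chromosome. Csf2 (chromosome 11, 54247271 to 54249667, minus strand) lies 15.6 kb from Il3, a cytokine of activated T cells and mast cells that was at 0 in all 10 libraries. Ifng (chromosome 10, 118441046 to 118445892, plus strand) and Fasl (chromosome 1, 161780689 to 161788495, minus strand) have no other member within their cluster. The libraries do not mark strand, so reads of Il21 and the antisense gene Gm12534, and of Csf2 and the antisense gene Gm12223, cannot be told apart where they overlap. Il2 overlaps the end of Adad1, a testis gene with a mean of 2.1 normalized counts.

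The normalized counts of a library summed to between 11538244 and 14024851, and 15716 genes were tested. The titles call the samples T cells while a tissue field names tumor associated macrophages. The 8 T cell markers summed to 66996 to 111720 normalized counts per library and the 7 macrophage markers to 507 to 2437. CD40 library 3 stood apart before any comparison: it had the highest Malat1, a nuclear RNA, at 95260 against 14056 to 59286 in the others, and the lowest Cd8a, at 1051 against 1475 to 4947. Summed Y-linked transcripts were 3072 in CD40 library 3, 1569 in CD40 library 2 and 2438 in control library 1, and 0 or 1 in the rest, so pools differed in the sex of their mice. In bulk libraries such as these, fewer cells of a type and less RNA per cell cannot be told apart.

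**Figure D1:**
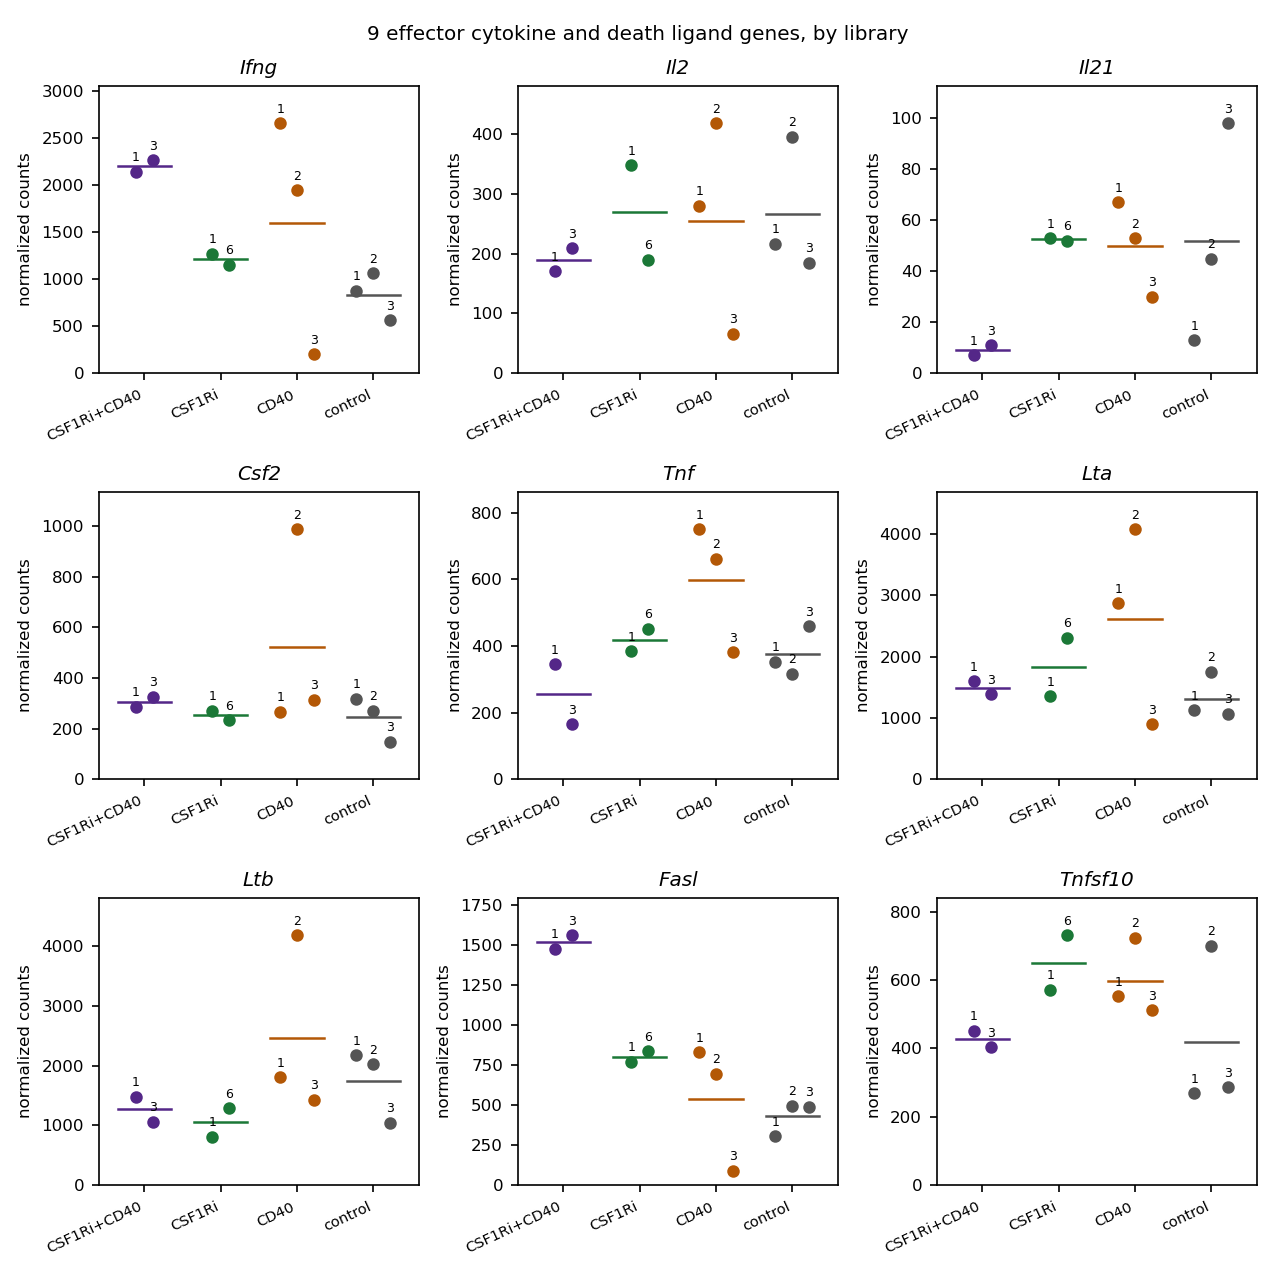
Normalized counts (linear axes from 0) of the 9 genes in every library, by group; each point is a library with its number, and each bar is the group mean. Fasl and Ifng are high in both CSF1Ri+CD40 libraries, at 1475 and 1558 and at 2145 and 2267, and CD40 library 3 is the lowest point for Ifng, Il2, Lta and Fasl.

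Fasl, the membrane ligand that kills Fas-bearing cells, was the only member whose 95% interval for the combination against control left out 0, before adjustment. Its normalized counts were 1475 and 1558 in CSF1Ri+CD40 libraries, 771 and 834 in CSF1Ri libraries, 831, 696 and 90 in CD40 libraries and 307, 497 and 489 in control libraries. Both combination libraries were above the other 8, both CSF1Ri libraries were above all controls, and the CD40 libraries overlapped the controls only through library 3. Of all genes tested, 10.6% lay above every control under the combination and 11.6% under CSF1Ri. The share above all other 8 libraries was not computed. Against control, the log2 fold change was 1.85 ± 0.74 (SE; limma adjusted p = 0.914, unadjusted p = 0.0283) for the combination, 0.93 ± 0.74 (adjusted p = 1) for CSF1Ri and -0.17 ± 0.66 (adjusted p = 0.983) for CD40. The combination differed from CD40 by 2.02 ± 0.74 (limma adjusted p = 0.934) and from CSF1Ri by 0.92 ± 0.81 (adjusted p = 1). One library sets much of this error. Without CD40 library 3, the combination against control kept 1.85 with a limma adjusted p of 0.111 (unadjusted p = 3.95e-05), CD40 against control became 0.85 (adjusted p = 0.274), and the combination against CD40 became 0.99 (adjusted p = 0.545). Without CD40 libraries 2 and 3 together, the combination against control was again 1.85.

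Ifng, which encodes interferon gamma, also had its highest group mean with the combination. It had 2145 and 2267 normalized counts in CSF1Ri+CD40 libraries, 1272 and 1157 in CSF1Ri libraries, 2659, 1949 and 203 in CD40 libraries and 876, 1063 and 563 in control libraries. The combination and the CSF1Ri libraries were all above the highest control, as were 10.6% and 11.6% of all genes tested in these comparisons. The CD40 group held both the highest and the lowest of the 10 values. The log2 fold change against control was 1.45 ± 0.82 (SE; limma adjusted p = 0.925) for the combination, 0.59 ± 0.82 (adjusted p = 1) for CSF1Ri and 0.34 ± 0.73 (adjusted p = 0.955) for CD40. Without CD40 library 3 the CD40 value was 1.50 (limma adjusted p = 0.141), and without CD40 library 1 it was -0.36. The combination exceeded CD40 by 1.11 ± 0.82 with all libraries (limma adjusted p = 0.966), and the value without CD40 library 3 was -0.05 (adjusted p = 0.989). The combination exceeded CSF1Ri by 0.86 ± 0.90 (limma adjusted p = 1).

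Other cells can carry both transcripts, natural killer cells above all. The summed level of 5 natural killer markers was 3917 and 3116 in CSF1Ri+CD40 libraries, 2750 and 3054 in CSF1Ri libraries, 2166, 2332 and 974 in CD40 libraries and 3023, 3641 and 1786 in control libraries. The combination and control ranges overlapped, none of the 5 markers was at 0 everywhere, and the lowest sum was again in CD40 library 3. Ncr1, a defining natural killer receptor, was at 782 and 295 in CSF1Ri+CD40 libraries, 327 and 494 in CSF1Ri libraries, 253, 911 and 236 in CD40 libraries and 635, 555 and 407 in control libraries. It need not stand for the other markers of the list, which are given here only within the sum and may be placed differently. Cd8a, which marks CD8 T cells, was at 3785 and 4947 in CSF1Ri+CD40 libraries, 3223 and 3685 in CSF1Ri libraries, 3949, 2744 and 1051 in CD40 libraries and 1911, 1691 and 1475 in control libraries, so it was above all controls wherever Ifng and Fasl were. This placing was not particular to Cd8a. Summed Cd3d, Cd3e, Cd3g and Cd247 had it too, at 64188 and 63632, 61565 and 70649, 64548, 74024 and 47517, and 44196, 52525 and 54862 in those groups, in that order. Cd4 was above every control in every treated library. The share of all genes placed in this way was not computed. The part of natural killer or CD8 T cells in the Ifng and Fasl values was not tested.

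Summed markers of erythroid and gamma delta T cells also differed between groups, with no test run. Sums for dendritic cells, neutrophils, keratinocytes, melanocytes and fibroblasts are not described here. The 5 erythroid markers summed to 13 and 501 in CSF1Ri+CD40 libraries, 1318 and 2729 in CSF1Ri libraries, 876, 1195 and 942 in CD40 libraries and 13071, 15906 and 2940 in control libraries, so every treated library was below every control. The 5 gamma delta T cell markers in the table summed to 5950 and 6254 in CSF1Ri+CD40 libraries, 7455 and 13600 in CSF1Ri libraries, 7436, 4118 and 10714 in CD40 libraries and 12306, 9997 and 15258 in control libraries, so the combination was below every control. CSF1Ri library 6 and CD40 library 3 lay within the control range of the gamma delta sum. How often sums of other genes separate in these ways was not computed. None of these markers was at 0 everywhere, and their part in the members' values was not tested.

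Set against the CD3 transcripts of the same library (the sum of Cd3d, Cd3e, Cd3g and Cd247), Fasl was 2.37% ± 0.106 in CSF1Ri+CD40 libraries, 1.22% ± 0.0508 in CSF1Ri libraries (SD, n = 2 each), 0.806% ± 0.561 in CD40 libraries and 0.844% ± 0.132 in control libraries (SD, n = 3 each). Ifng was 3.45% ± 0.156, 1.85% ± 0.303, 2.39% ± 1.86 and 1.68% ± 0.564 of the CD3 sum in the same 4 groups, in that order. With every library rescaled to equal CD3 transcripts, the combination exceeded control by 1.50 for Fasl (limma adjusted p = 0.66) and by 1.11 for Ifng (adjusted p = 0.716) on the log2 scale, both smaller than on the deposited scale. Other denominators separated Ifng less. Ifng per summed Cd8a and Cd8b1 was 0.236 and 0.194 in CSF1Ri+CD40 libraries, 0.147 and 0.132 in CSF1Ri libraries, 0.285, 0.282 and 0.0772 in CD40 libraries and 0.187, 0.239 and 0.138 in control libraries, so the combination overlapped control. Fasl per summed Cd8a and Cd8b1 was 0.162 and 0.133 in CSF1Ri+CD40 libraries, 0.0892 and 0.0949 in CSF1Ri libraries, 0.0891, 0.101 and 0.0342 in CD40 libraries and 0.0654, 0.112 and 0.12 in control libraries, with both combination libraries above the other 8 and the CSF1Ri libraries within the control range. Relative to Cd3e alone, Ifng was 9.29% and 10.1% in CSF1Ri+CD40 libraries and 6.35%, 10% and 2.47% in control libraries, which overlapped, while Fasl was 6.39% and 6.95% in CSF1Ri+CD40 libraries and 2.22%, 4.69% and 2.14% in control libraries.

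Il2, the T cell growth factor, did not follow Fasl and Ifng. It had 171 and 209 normalized counts in CSF1Ri+CD40 libraries, 348 and 190 in CSF1Ri libraries, 280, 418 and 66 in CD40 libraries and 217, 396 and 185 in control libraries. All groups overlapped. The log2 fold change against control was -0.41 ± 0.70 for the combination (SE; limma adjusted p = 0.976), 0.03 ± 0.70 for CSF1Ri (adjusted p = 1) and -0.34 ± 0.62 for CD40 (adjusted p = 0.938), with 95% intervals of -1.93 to 1.11, -1.49 to 1.56 and -1.71 to 1.02. The CD40 value was 0.44 without CD40 library 3.

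Il21, a cytokine of helper T cells that sustains CD8 T cells and B cells, was the scarcest member. It had 7 and 11 normalized counts in CSF1Ri+CD40 libraries, 53 and 52 in CSF1Ri libraries, 67, 53 and 30 in CD40 libraries and 13, 45 and 98 in control libraries. The combination libraries were below the other 8, with control library 1 only just above them. Of all genes tested, 9.6% lay below every control under the combination, and the share below all other 8 libraries was not computed. The combination against control gave a log2 fold change of -2.03 ± 0.97 (SE; limma adjusted p = 0.925), which was -2.78 without control library 1 and -1.37 without control library 3. Against CSF1Ri the difference was -2.45 ± 1.06 (limma adjusted p = 1) and against CD40 it was -2.31 ± 0.97 (adjusted p = 0.966). CSF1Ri and CD40 alone gave 0.42 ± 0.97 (limma adjusted p = 1) and 0.28 ± 0.87 (adjusted p = 0.976) against control. At these counts a few reads move the fold.

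Csf2 encodes GM-CSF, the growth factor of granulocytes and macrophages. It had 286 and 325 normalized counts in CSF1Ri+CD40 libraries, 271 and 233 in CSF1Ri libraries, 267, 986 and 314 in CD40 libraries and 317, 271 and 148 in control libraries. CD40 library 2 alone was far above the rest, and the antisense gene Gm12223 was also highest there, at 426 against 67 to 140 elsewhere. The log2 fold change against control was 0.38 ± 0.55 for the combination (SE; limma adjusted p = 0.968), 0.11 ± 0.55 for CSF1Ri (adjusted p = 1) and 0.90 ± 0.49 for CD40 (adjusted p = 0.794).

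Tnf, the inflammatory cytokine TNF, had its highest group mean with the antibody alone and its lowest with the combination. It had 345 and 165 normalized counts in CSF1Ri+CD40 libraries, 385 and 452 in CSF1Ri libraries, 750, 662 and 381 in CD40 libraries and 353, 317 and 460 in control libraries. Both combination libraries were below every library of either single treatment, but CSF1Ri+CD40 library 1 lay within the control range. CD40 library 3 also lay within that range. The combination against CD40 gave a log2 fold change of -1.26 ± 0.42 (SE; limma adjusted p = 0.916, unadjusted p = 0.0109), which was -0.73 without CSF1Ri+CD40 library 3 and -1.79 without library 1. The combination against CSF1Ri gave -0.80 ± 0.46 (limma adjusted p = 1) and against control -0.64 ± 0.42 (adjusted p = 0.925), the second of which was -0.11 without CSF1Ri+CD40 library 3. CD40 and CSF1Ri alone gave 0.62 ± 0.37 (limma adjusted p = 0.813) and 0.16 ± 0.42 (adjusted p = 1) against control. Macrophages and mast cells also make TNF. The 7 macrophage markers summed to 507 and 884 in CSF1Ri+CD40 libraries, 515 and 800 in CSF1Ri libraries, 2437, 639 and 559 in CD40 libraries and 757, 1111 and 966 in control libraries, and the highest sum was in CD40 library 1, where Tnf was highest. The 6 mast cell and basophil markers were also highest in that library, at 6341, and next in CSF1Ri+CD40 library 1, at 4141, against 148 to 1341 in the other 8. Their part in the Tnf values was not tested.

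Lta and Ltb encode lymphotoxin alpha and beta, which pair to signal through the lymphotoxin beta receptor. Lta had 1596 and 1383 normalized counts in CSF1Ri+CD40 libraries, 1352 and 2307 in CSF1Ri libraries, 2872, 4072 and 900 in CD40 libraries and 1129, 1751 and 1065 in control libraries. Ltb had 1479 and 1058, 812 and 1291, 1804, 4177 and 1426, and 2172, 2019 and 1043 in the same groups, in that order. All groups overlapped the controls for both genes, and both genes had their highest value in CD40 library 2. CD40 gave log2 fold changes against control of 0.77 ± 0.47 for Lta (SE; limma adjusted p = 0.815) and 0.41 ± 0.41 for Ltb (adjusted p = 0.89). Without CD40 library 3 the Lta value was 1.42 (limma adjusted p = 0.182), and without CD40 library 2 the Ltb value was -0.05. The combination against control gave 0.21 ± 0.52 for Lta (limma adjusted p = 0.992) and -0.41 ± 0.46 for Ltb (adjusted p = 0.965), and CSF1Ri gave 0.46 ± 0.52 and -0.70 ± 0.46 (adjusted p = 1 for both). The 5 B cell markers summed to 5842 and 4691 in CSF1Ri+CD40 libraries and 5971 and 4461 in CSF1Ri libraries. Their sums were 4397, 5327 and 6422 in CD40 libraries and 5268, 7000 and 6417 in control libraries. The part of B cells in the Lta and Ltb values was not tested.

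Tnfsf10 encodes TRAIL, a death ligand that interferons can induce. It had 452 and 404 normalized counts in CSF1Ri+CD40 libraries, 571 and 730 in CSF1Ri libraries, 553, 723 and 511 in CD40 libraries and 268, 700 and 287 in control libraries. The combination libraries were below all 5 single-treatment libraries and within the control range, where control library 2 was well above the other 2. The log2 fold change against control was 0.18 ± 0.41 for the combination (SE; limma adjusted p = 0.99), 0.77 ± 0.41 for CSF1Ri (adjusted p = 1) and 0.64 ± 0.37 for CD40 (adjusted p = 0.805).

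**Figure D2:**
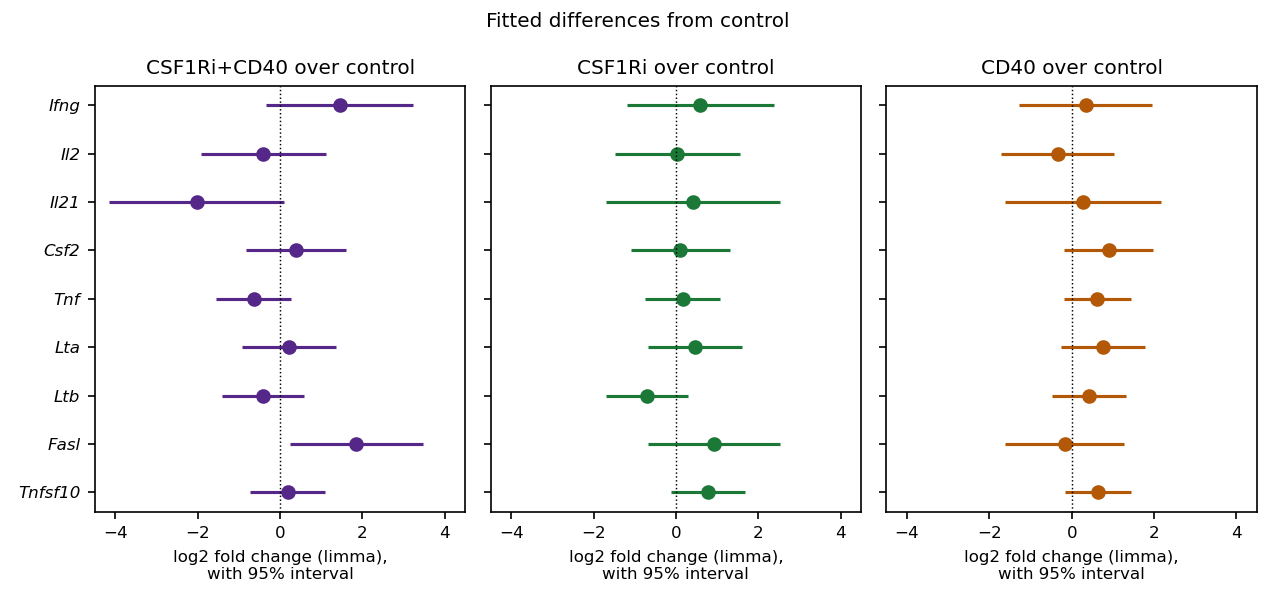
Fitted log2 fold changes over control (points) with 95% intervals (lines) for the 9 genes, with the combination on the left. The interval of Fasl under the combination, 0.23 to 3.46, is the only one shown that leaves out 0, before any adjustment.

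Counting over the members, 0 of 9 passed an adjusted p under 0.05 in the combination against control, where 0 of 15716 genes did (0%). The same was true of the 9 members in CSF1Ri against control and in CD40 against control, where 1 gene each passed (0.00636%), and in the combination against CSF1Ri, against CD40, the interaction and the 2 averaged effects, where no gene passed (0% each). At an unadjusted p under 0.05, 1 member (Fasl) passed in the combination against control, where 5.4% of all genes did. In CSF1Ri against control and CD40 against control, 0 members passed, against 4.08% and 6.39% of genes. In the combination against CD40, 3 members passed (Fasl, Tnf and Il21; 4.96% of genes), and against CSF1Ri 1 member did (Il21; 3.58%). The median log2 fold change of the 9 members against control was 0.18 for the combination, 0.42 for CSF1Ri and 0.41 for CD40, beside medians of -0.002, 0.02 and -0.01 over all genes tested. After rescaling to equal CD3 transcripts, the members' medians were -0.17, 0.04 and 0.13 and those of all genes were -0.34, -0.36 and -0.28, so the sign for the combination depended on the scaling while the members' median stayed above that of all genes. The 3 comparisons share the same controls. Without CD40 library 3, 0 of 9 members passed in each of these 8 comparisons, where 0 or 1 of 15441 genes did.

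By overlap of the deposited normalized values, the combination lay above every control for Ifng and Fasl and below for Il21, where 10.6% of all genes lay above and 9.6% below. CSF1Ri lay above control for Ifng and Fasl and below for 0 members, against 11.6% and 10.3% of genes. CD40 lay clear of control for 0 members in either direction, against 4.19% and 4.91%. The combination lay above CSF1Ri for Ifng, Fasl and Csf2 and below for Tnf, Il21 and Tnfsf10, against 16.5% and 16.8% of genes. It lay above CD40 for Fasl and below for Tnf, Il21 and Tnfsf10, against 8.19% and 6.84% of genes.

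Whether the inhibitor acted differently with and without the antibody was asked with the interaction term, which is the combination effect beyond the sum of both single effects. The interaction on the log2 scale was -1.43 ± 0.59 for Tnf (SE; limma adjusted p = 0.991, unadjusted p = 0.0328), -2.73 ± 1.37 for Il21, -1.23 ± 0.59 for Tnfsf10, 1.09 ± 1.04 for Fasl and 0.53 ± 1.16 for Ifng (adjusted p = 0.991 for each). At an unadjusted p under 0.05, 1 member passed, Tnf, against 4.17% of all genes. Without CD40 library 3, the Ifng interaction was -0.63 and that of Fasl 0.07. Averaged over libraries with and without the antibody, the inhibitor gave 1.47 ± 0.52 for Fasl (SE; limma adjusted p = 0.994), 0.85 ± 0.58 for Ifng and -0.76 ± 0.32 for Ltb (adjusted p = 0.994 for both). Fasl and Ltb were the 2 members under an unadjusted p of 0.05, against 4.6% of genes. For the antibody averaged over both inhibitor levels 0 members passed, against 4.67%.

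The opposite placing of Fasl and Ifng against Tnf in the combination libraries can be read within each library, where scaling cancels. The Ifng to Tnf ratio of normalized counts was 6.22 and 13.7 in CSF1Ri+CD40 libraries, 3.3 and 2.56 in CSF1Ri libraries, 3.55, 2.94 and 0.533 in CD40 libraries and 2.48, 3.35 and 1.22 in control libraries. The Fasl to Tnf ratio was 4.28 and 9.44, 2 and 1.85, 1.11, 1.05 and 0.236, and 0.87, 1.57 and 1.06 in those groups, in that order. For both ratios the 2 combination libraries were above the other 8. These ratios were chosen after the values were seen and carry no test. Fasl per Ifng was 0.688 and 0.687 in CSF1Ri+CD40 libraries and 0.35, 0.468 and 0.869 in control libraries, which overlapped.

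**Figure D3:**
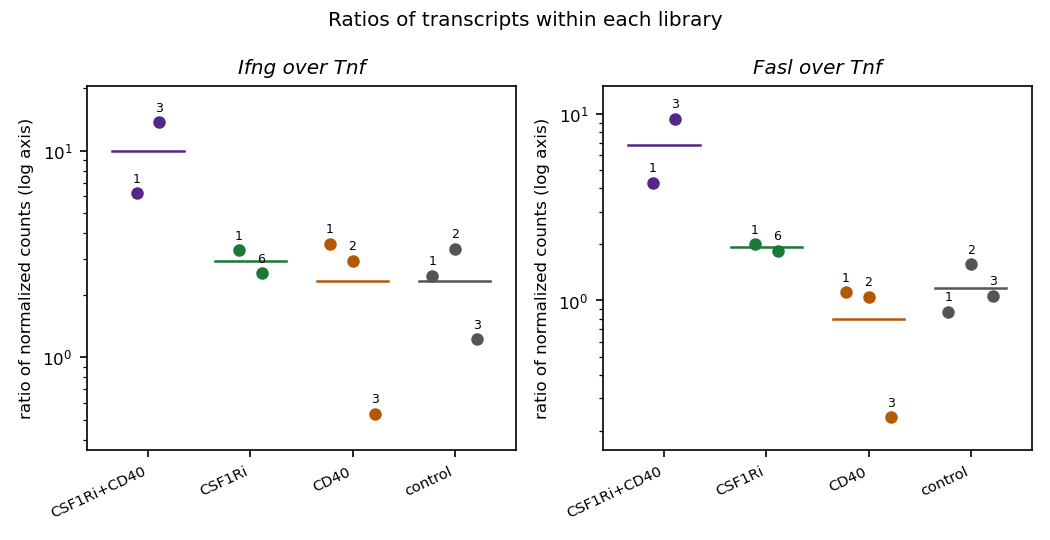
Ratios of normalized counts of Ifng to Tnf (left) and of Fasl to Tnf (right) in each library on log axes; points are libraries with their numbers and bars are group means. Both CSF1Ri+CD40 libraries lie above all others, at 6.22 and 13.7 and at 4.28 and 9.44, and CD40 library 3 is lowest in both panels.

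Levels of different genes were set side by side only per kilobase of merged exon. Over the 10 libraries the order of the mean normalized counts per kb was Lta at 1332, Ltb at 1140, Ifng at 1093, Csf2 at 427, Fasl at 390, Tnf at 261, Il2 at 217, Tnfsf10 at 98.7 and Il21 at 8.16. Their SDs over the 10 libraries ran from 5.41 for Il21 to 714 for Lta. Of the 8 neighbouring pairs in this order, the first gene was above the second in all 10 libraries only for Tnfsf10 over Il21, and in 9 of 10 for Ifng over Csf2 and Il2 over Tnfsf10. Lta over Ltb and Tnf over Il2 held in 7 libraries, Ltb over Ifng and Fasl over Tnf in 5, and Csf2 over Fasl in 4. Lta, Ltb and Ifng changed places among themselves, as did Csf2, Fasl, Tnf and Il2, and Il21 was below Tnfsf10 in every library. Fasl stood at 783 ± 30.3 normalized counts per kb in CSF1Ri+CD40 libraries (SD, n = 2) and 223 ± 55.5 in control libraries (SD, n = 3).

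**Figure D4:**
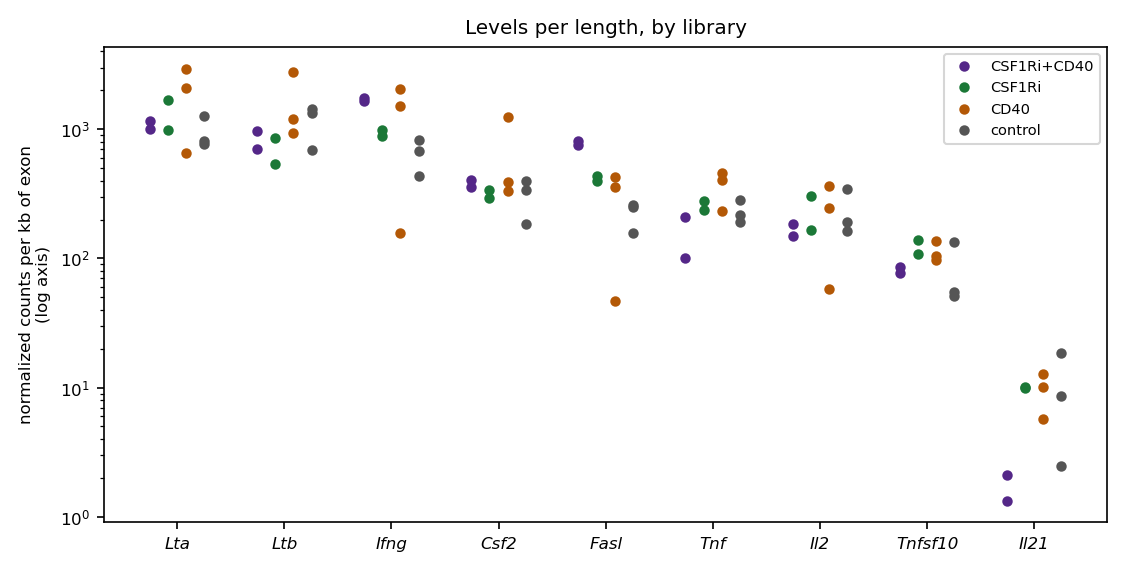
Normalized counts per kb of merged exon (log axis) of the 9 genes in every library, ordered by their mean over the 10 libraries; each point is a library, colored by group. Lta, Ltb and Ifng average 1332, 1140 and 1093, and Il21 averages 8.16.

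Across the 10 libraries the members varied together only in part. Of 36 pairs, 31 had a Pearson r above 0 on the log2 scale, with a median of 0.32 and a range of -0.20 to 0.90. The highest was Ifng with Fasl (r = 0.90, Spearman rho = 0.84), which was 0.74 and 0.78 over the 9 libraries without CD40 library 3. Ifng with Il2 had r = 0.68 over 10 libraries and 0.16 without that library. Tnf and Il21 had r = 0.65 (rho = 0.84). All pairs share libraries, depth and scaling, and these are descriptions.

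The genes most like each member were the 3 with the highest r among 10481 genes with a mean of at least 50 normalized counts. For Ifng they were Bcl2a1b (r = 0.949), the chemokine Ccl4 (0.948) and Tor2a (0.939), and for Fasl AA467197 (0.962), Gemin8 (0.959) and again Ccl4 (0.939). Ccl4, made by activated T and natural killer cells, had 6380 and 8292 normalized counts in CSF1Ri+CD40 libraries, 1640 and 1581 in CSF1Ri libraries, 3367, 3922 and 188 in CD40 libraries and 1200, 1869 and 1103 in control libraries. Tnf was most like Rcl1 (0.913), Ubxn4 (0.889) and Tnip2 (0.872), a regulator of NF-kappaB. Il2 was most like Slx1b (0.979), Zcchc4 (0.951) and Commd6 (0.949), and Il21 most like Nucb2 (0.901), Arl2 (0.898) and Zbtb14 (0.881). Csf2 was most like Gm12223 (0.939), whose reads overlap its own, Ppp1r11 (0.916) and Fmc1 (0.914). The leading matches were Atp5l (0.967), Trav13-1 (0.965) and Emp3 (0.960) for Lta, Zfp637 (0.964), Gltscr2 (0.960) and Znhit2 (0.943) for Ltb, and Chmp3 (0.922), Mcee (0.911) and Bub3 (0.911) for Tnfsf10. Choosing the best 3 of 10481 genes over 10 libraries favors a high r, so these values are descriptions. CD40 library 3 was the lowest library for every match of Ifng, Il2, Lta and Fasl, and r without that library was not computed for any match. The nearest gene to the lymphotoxin genes outside the trio, Lst1, averaged 75.5 normalized counts, and Il22, on the chromosome of Ifng, had 455 and 419 in CSF1Ri+CD40 libraries, 11 and 58 in CSF1Ri libraries, 12, 2 and 67 in CD40 libraries and 191, 294 and 231 in control libraries.

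The receptors for these ligands were followed as a list of 16 genes, 15 of them tested. Against control, 0 rose and 0 fell in each of the 3 treatments, and 10 of 15 were higher under the combination, with a median log2 fold change of 0.12. That direction turned after rescaling to equal CD3 transcripts, where 4 of 15 were higher (median -0.19), although 10 of 15 were still above the median of all genes. Il2rb, a signaling chain of the receptors for interleukins 2 and 15, had 7260 and 5343 normalized counts in CSF1Ri+CD40 libraries and 6565 and 6483 in CSF1Ri libraries, against 2906, 3097 and 4620 in control libraries. Its log2 fold changes over control were 0.85 ± 0.25 for the combination (SE; limma adjusted p = 0.743) and 0.91 ± 0.25 for CSF1Ri (adjusted p = 1). Il21r, the receptor of interleukin 21, had 764 and 483 in CSF1Ri+CD40 libraries and 338, 346 and 404 in control libraries (limma adjusted p = 0.914), the opposite placing to its ligand. Tnfrsf10b, a mouse receptor of TRAIL, had 87 and 63 in CSF1Ri libraries and 229, 129 and 148 in control libraries (limma adjusted p = 1). Tnfrsf1a, a TNF receptor, had 339, 320 and 313 in CD40 libraries and 63, 93 and 339 in control libraries (adjusted p = 0.773), and Tnfrsf22, a decoy receptor of TRAIL, 201, 181 and 249 against 93, 117 and 82 (adjusted p = 0.794).

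Genes that drive type 1 differentiation were a list of 12, of which 11 were tested. None passed against control in any treatment, and 8 of 11 were higher under the combination (median log2 fold change 0.48), 8 under CSF1Ri (0.26) and 5 under CD40 (-0.06). After rescaling to equal CD3 transcripts, 6 of 11 were higher under the combination (0.13), 3 under CSF1Ri (-0.13) and 3 under CD40 (-0.34), and 8, 7 and 5 were above the median of all genes. Bhlhe40, a factor needed for Ifng output of T cells, had 5987 and 5175 normalized counts in CSF1Ri+CD40 libraries, 2626, 2485 and 1571 in CD40 libraries and 3305, 2579 and 3297 in control libraries (limma adjusted p = 0.743 for the combination and 0.773 for CD40 against control). Bhlhe40 was at 4189 and 3491 in CSF1Ri libraries, also above every control. Of all genes tested, 10.6% lay above every control under the combination and 11.6% under CSF1Ri. Irf1, a factor that interferon gamma induces, had 3187 and 4252 in CSF1Ri+CD40 libraries and 2207, 2476 and 1934 in control libraries (limma adjusted p = 0.743). Il12rb2, the inducible chain of the interleukin 12 receptor, had 141 and 327 in CSF1Ri libraries, 139, 142 and 280 in CD40 libraries and 3, 100 and 32 in control libraries (limma adjusted p = 1 and 0.722). In CSF1Ri+CD40 libraries Il12rb2 was at 368 and 96, which overlapped the controls. Stat4, which carries the interleukin 12 signal, had 721 and 1098 in CSF1Ri libraries and 470, 398 and 452 in control libraries (adjusted p = 1). Stat4 was at 525 and 421 in CSF1Ri+CD40 libraries and at 756, 314 and 573 in CD40 libraries, and both groups overlapped the controls.

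Of 18 genes induced by interferon gamma, which share Irf1 with the previous list, none passed against control. Under the combination 17 of 18 were higher, with a median log2 fold change of 0.63, beside 12 of 18 (0.21) under CSF1Ri and 14 of 18 (0.29) under CD40. After rescaling to equal CD3 transcripts, the same counts above 0 were 13, 6 and 10 of 18, and those above the median of all genes were 17, 12 and 14. Iigp1, an interferon-induced GTPase, had 2700 and 2562 normalized counts in CSF1Ri+CD40 libraries and 774, 1183 and 985 in control libraries (limma log2 fold change 1.44 ± 0.35 SE, adjusted p = 0.633). Irgm1, another, had 2374 and 2646 in CSF1Ri libraries and 918, 1814 and 1523 in control libraries (limma adjusted p = 1), and Igtp 5665, 6489 and 4435 in CD40 libraries and 2851, 3893 and 3004 in control libraries (adjusted p = 0.666). Igtp had 3793 and 4619 in CSF1Ri libraries, which overlapped the controls. Cd274, which encodes PD-L1, lay the other way under CD40, at 237, 238 and 267 against 346, 379 and 436 in control libraries (limma adjusted p = 0.773).

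The factors switched on by the T cell receptor (18 genes) included 0 that passed against control, and 8 of 18 were higher under the combination, 6 under CSF1Ri and 5 under CD40, with median log2 fold changes of -0.07, -0.13 and -0.38. After rescaling to equal CD3 transcripts, 4, 3 and 3 were higher, and 8, 5 and 5 were above the median of all genes. Nr4a1, an immediate early gene, had 445 and 291 normalized counts in CSF1Ri libraries, 381, 528 and 488 in CD40 libraries and 1471, 722 and 841 in control libraries (limma adjusted p = 1 and 0.691). In CSF1Ri+CD40 libraries Nr4a1 was at 658 and 649, also below every control, as were 9.6% of all genes tested. Junb, a subunit of AP-1, had 1773 and 1614 in CSF1Ri+CD40 libraries, 1486 and 1414 in CSF1Ri libraries, 1505, 2583 and 852 in CD40 libraries and 5280, 3646 and 2066 in control libraries (limma adjusted p = 0.914, 1 and 0.722). Nfkb1, a subunit of NF-kappaB, had 1291 and 1157 in CSF1Ri+CD40 libraries and 2240, 1386 and 2580 in control libraries (adjusted p = 0.925). CD40 library 3 had the lowest Junb of the 10.

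The RNA-binding proteins that control cytokine messenger RNA (10 genes) were mostly on one side of control. None passed, and 9 of 10 were lower than control under the combination, 10 of 10 under CSF1Ri and 9 of 10 under CD40, with median log2 fold changes of -0.40, -0.79 and -0.66. Rescaling to equal CD3 transcripts left these counts unchanged, but it lowers all genes against control (medians -0.34, -0.36 and -0.28), so lower genes had to stay lower. Below the median of all genes after that rescaling were 9, 10 and 9 of 10. Zfp36l2, which speeds decay of AU-rich transcripts, had 1300 and 1747 normalized counts in CSF1Ri+CD40 libraries, 1298 and 939 in CSF1Ri libraries, 687, 833 and 1219 in CD40 libraries and 3010, 1986 and 2409 in control libraries. Every treated library was below every control, and the log2 fold changes were -0.69 ± 0.31, -1.14 ± 0.31 and -1.45 ± 0.27 (SE; limma adjusted p = 0.914, 1 and 0.532). Of all genes tested, 9.6%, 10.3% and 4.91% lay below every control in these comparisons, and the share below in all of them was not computed. Zfp36l2 was named for its small p within the list. Zfp36, which encodes tristetraprolin, the decay factor of Tnf and Csf2 messages, had 3509, 3165 and 3353 in CD40 libraries and 6132, 4402 and 6548 in control libraries (limma adjusted p = 0.666). Zfp36l1 had 1196 and 1019 in CSF1Ri libraries and 3340, 1148 and 2233 in control libraries (limma adjusted p = 1). Zc3h12a, which encodes the nuclease Regnase-1, had 107 and 67 in CSF1Ri+CD40 libraries and 229, 137 and 114 in control libraries (adjusted p = 0.935).

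Among 4 genes for the release of membrane-bound TNF family ligands none passed, and 3 of 4 were lower under the combination. Adam10, a sheddase that cuts Fas ligand, had 2099 and 1816 normalized counts in CSF1Ri libraries, 2191, 2083 and 2616 in CD40 libraries and 3168, 2521 and 2638 in control libraries (limma adjusted p = 1 and 0.843). Rhbdf2, a partner of the TNF sheddase, had 163 and 93 in CSF1Ri+CD40 libraries and 278, 166 and 207 in control libraries (limma adjusted p = 0.925). Its relative Rhbdf1 was at 19 and 0 in CSF1Ri+CD40 libraries, 12 and 4 in CSF1Ri libraries, 22, 38 and 59 in CD40 libraries and 0 in all 3 control libraries (limma adjusted p = 0.925, 1 and 0.666).

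Of 21 other cytokines of helper T cells and TNF family ligands, 17 were tested and 1 passed: Il17a, the cytokine of type 17 cells, fell under CD40 to 485, 155 and 128 normalized counts, against 3182, 3672 and 4222 in control libraries (log2 fold change -4.10 ± 0.41 SE, limma adjusted p = 0.00879). No gene passed in this comparison without control library 1, 2 or 3 or CD40 library 2, with no filter on low values, with only the 2 groups fitted or with the replicate block, so the call for Il17a was lost in each. Il17a was at 1215 and 978 in CSF1Ri+CD40 libraries (adjusted p = 0.667) and at 1070 and 1138 in CSF1Ri libraries (limma adjusted p = 1). Its partner Il17f had 2058, 188 and 86 in CD40 libraries and 3196, 7086 and 6212 in control libraries (limma adjusted p = 0.666). Il10, a cytokine that restrains myeloid cells, had 456 and 563 in CSF1Ri+CD40 libraries and 198, 357 and 217 in control libraries (limma adjusted p = 0.914). The Il17a difference passed in the same fit and libraries in which 0 of the 9 type 1 members did.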

How the data were processed

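T cells of pooled melanomas were sequenced in 10 libraries (75-base paired reads, libraries from 50 ng RNA that do not mark strand). Per the labels' protocols and the submitters' processing notes, reads were aligned with STAR to GRCm38 (mm10), counted with HTSeq and analysed with DESeq2 (versions not given in the sources used here). The deposited values are whole numbers, used here as a score: counts the authors normalized and rounded, with median-of-ratios factors within 0.203% of each other. Raw depth is therefore unknown, and no count test was run.

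Values were analysed as log2(value + 1) for the 15716 genes that reached 10 normalized counts in 2 or more libraries; all 9 members passed. One limma fit (version 3.58.1, R 4.3.3, variance trend, 6 residual and 5.48 prior degrees of freedom) over 4 group means gave 8 contrasts, with Benjamini-Hochberg adjustment over all genes at 0.05, and was tested on simulated data. Fold changes are on this scale, which understates those of low genes. Sequences are from RefSeq and positions and exon lengths from GENCODE.

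The members, lists, alternatives and tests were chosen with earlier results of these data known. Genes named are the members, from each list the 2 with the smallest p in each comparison with control, the 3 most correlated with each member and neighbours in its cluster. No proteins were printed. A further allele of the strain and a gene of the lists are not reported here by name.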

Additional observations from a re-analysis of the deposited data

How the results depend on the processing

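Under all alternatives run, 0 of 9 members passed in each of the 8 comparisons. The signs of 47 member effects were followed, which do not cover every member in every comparison. Of these, 32 kept their sign throughout, and 36 of 1097 alternative values had the opposite sign. Leaving out each library in turn gave ranges that crossed 0 for 11 effects. For CD40 over control these ran from -0.74 to 0.85 for Fasl, -0.36 to 1.50 for Ifng, -0.88 to 0.44 for Il2, -0.05 to 0.73 for Ltb and -0.48 to 0.93 for Il21. For CSF1Ri over control they ran from -0.40 to 0.47 for Il2, -0.22 to 0.33 for Csf2 and -0.34 to 1.08 for Il21. They ran from -0.07 to 0.62 for Tnfsf10 in CSF1Ri+CD40 over control, -0.05 to 1.81 for Ifng in CSF1Ri+CD40 over CD40 and -0.63 to 1.22 for the Ifng interaction.

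Without CD40 libraries 2 and 3 together, CD40 over control was 0.98 for Fasl and 0.15 for Il2, the Ifng value of CSF1Ri+CD40 over CD40 was -0.27, and the interaction was -0.06 for Fasl and -0.86 for Ifng. With library weights estimated by limma, CD40 over control was 0.41 for Fasl and 0.05 for Il2, and the Ifng interaction was -0.22. With a term for Y-linked transcripts, Fasl in CD40 over control was 0.25, and CSF1Ri over control was -0.17 for Il2 and -0.08 for Il21. With a term for Malat1, the values were 0.09 for Fasl in CD40 over control and -0.15 for Il2 in CSF1Ri over control. Rescaling to equal CD3 transcripts gave -0.28 for Csf2, -0.36 for Il2 and -0.22 for Tnf in CSF1Ri over control, and -0.13 for Lta and -0.17 for Tnfsf10 in CSF1Ri+CD40 over control. Against Cd3e alone, the combination minus control difference was 1.24 for Fasl, beside 1.50 against all 4 CD3 transcripts. Equal totals gave -0.01 for Il2 in CSF1Ri over control. The cause of these sign changes was not tested.

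Same-numbered libraries correlated between -0.27 and 0.18 in their deviations, so the numbers were not taken as pairs. With the replicate block, Il2 in CSF1Ri+CD40 over control was 0.02, Fasl was 2.13 (adjusted p = 0.848), and the count of members passing was 0 in each comparison it allowed. The CSF1Ri titles share no number with the others, so their comparisons have no such fit. Groups of 2 and 3 pools, values at or below 11 for Il21 under the combination, and 1 divergent CD40 pool limit what could be detected.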
